A study of Homo sapiens with 16 samples.

Results

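The genes described here are 430 antisense noncoding RNAs of human HepaRG liver cells. They were taken from the 5583 genes of the deposited count table whose biotype is antisense, and were chosen by their level, a mean of at least 1 CPM (the count in each library scaled to a total of 1e6) over all 16 libraries. They make up 7.70% of that class; 1911 other antisense genes had no count in any library. Levels are therefore a description and only differences between treatments were tested. The members just inside the threshold were AC006547.1 with 1.0145 CPM, AC034231.1 with 1.0137 CPM and AC022098.1 with 1.0103 CPM. Just outside it lay AL139274.2 with 0.9951 CPM, MINCR with 0.9938 CPM and DNAJC9-AS1 with 0.9903 CPM.

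An antisense RNA is copied from the DNA strand opposite to another gene. Some start beside the promoter of a coding gene and run away from it, some run into the end of a coding gene, and some lie wholly within an intron. Known members of the class act in different ways: KCNQ1OT1 silences neighbouring genes of its imprinted domain in cis, and others steady or destabilise the mRNA they pair with. Many are by-products of promoters that fire in both directions. In HepaRG cells, antisense RNAs at the genes of hepatocyte nuclear factors have been linked to the expression of cytochrome P450 enzymes.

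HepaRG is a human hepatoma-derived line whose cells become hepatocyte-like or cholangiocyte-like on differentiation. Each of 4 groups had 4 libraries after 3 days of treatment: fatty acids plus formoterol (from here on the combination), fatty acids (0.5 mM oleic acid with 0.25 mM palmitic acid), formoterol (30 nM, an agonist of the beta-2 adrenergic receptor that raises cAMP), and control cells given the vehicle, 1% BSA. All groups were kept in 2% DMSO and in medium with insulin and the glucocorticoid triamcinolone acetonide. The labels number the replicates without saying whether they came from separate cultures, so p-values measure the spread between these libraries, which may be technical. This is a single cell line, and where types are mixed fewer cells of a type and less RNA per cell cannot be told apart.

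Libraries held 32.5e6 to 65.7e6 counts, the highest being formoterol replicate 4, and a member had a median of 88.5 counts per library. All 10 hepatocyte markers were detected. The cholangiocyte marker EPCAM, the fibroblast gene COL1A2 and the endothelial gene CDH5 were listed at 0 throughout, but other genes of their lists were not. Over all libraries KRT19 of the cholangiocyte list had 47.3 to 180 CPM. DCN of the fibroblast list had 313 to 716 CPM, and KDR of the endothelial list 34.1 to 170 CPM. Combination replicate 2 stood apart: its hepatocyte markers summed to 31466 CPM, against 61114 to 65686 CPM in the other combination libraries, and its proliferation markers to 650 CPM, against 339 to 360 CPM. Hepatocyte markers summed to 58212 to 64998 CPM with fatty acids, 63696 to 65911 CPM with formoterol and 30938 to 44408 CPM in control cells. By this sum all treated libraries but this 1 lay above control. Not every marker of the list followed the sum: CYP3A4 had 246 to 907 CPM in the combination and 1613 to 2733 CPM in control cells. Results that rest on combination replicate 2 are given with and without it. Tests used trimmed-mean (TMM) scaling, whereas CPM values use library totals. Under totals alone the median gene moved by −0.14 log2 units between formoterol and control, so CPM levels of formoterol libraries run slightly lower than the tested changes.

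How the members were counted may bear on the values below. Sources used here do not give the strandedness of the counts. Among genes with no exonic base shared on their own strand, those with over 90% of their exonic bases on exons of the opposite strand were all under 1 CPM: 0 of 402 antisense genes and 0 of 23 protein-coding genes reached it, with highest values of 0.0832 CPM and 0.954 CPM. Without such sharing, 4.80% of 2374 antisense genes and 56.8% of 11097 protein-coding genes reached 1 CPM. Reads on genes that lie almost wholly on exons of the opposite strand thus hardly appear in the table. With less sharing the percentages did not fall steadily. Over 0 to 50% shared, 12.7% of 2083 antisense genes and 76.0% of 5291 protein-coding genes reached 1 CPM. Over 50 to 90% shared, 1.79% of 448 and 41.7% of 115 did. Whether reads on shared bases of the members were left out was not tested. Of the members' exonic bases, 10.3% lie on exons of coding genes, 36.3% in their introns and 53.4% outside. Where a member lies in an intron, its reads and those of the unspliced coding RNA cannot be told apart.

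**Figure D1:**
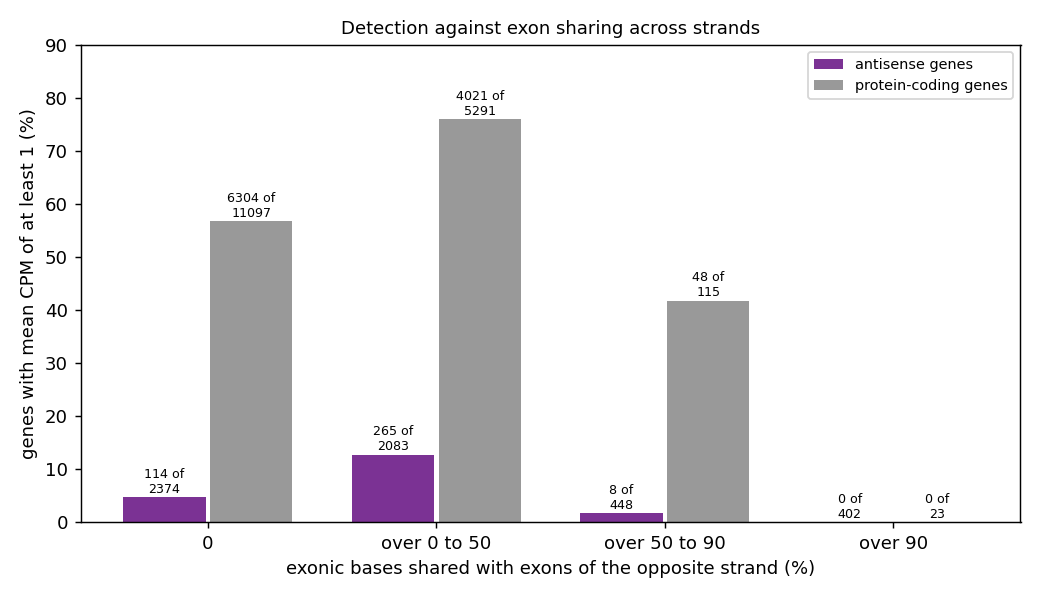
Percentage of genes that average 1 CPM or more (vertical axis) among antisense genes (purple) and protein-coding genes (grey), by the percentage of their exonic bases shared with exons of the opposite strand (horizontal axis), for genes with no base shared on their own strand. The bars are labelled with the number of genes, and both reach 0 where over 90% is shared.

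Of the 430 members, 52 had a mean of at least 10 CPM, 203 lay between 2 and 10 CPM and 175 between 1 and 2 CPM. The 10 most abundant held 25.7% of all member CPM. The highest was FGD5-AS1 (chromosome 3:14920347-14948424, minus strand, GRCh38), a noncoding RNA that overlaps the coding gene FGD5. It averaged 203 ± 21.3 CPM in the combination, 209 ± 8.39 CPM with fatty acids, 174 ± 5.87 CPM with formoterol and 210.4 ± 6.74 CPM in control cells (SD, n = 4 each), while FGD5 averaged 0.157 CPM or less in each group. AC018647.2, CCDC144NL-AS1, GABPB1-AS1, OTUD6B-AS1, DHRS4-AS1, AC097478.1, AL365181.3, WAC-AS1 and MSC-AS1 followed, with control means between 72.8 and 32.8 CPM. Per kilobase of exon, the coding gene was higher than its antisense RNA in most pairs, with a median ratio of 2.24, but 137 members were above their partner and 69 had a partner under 1 CPM. Levels of members and partners per kilobase hardly went together (r = 0.05 on the log2 scale over pairs with both at 1 CPM or more, which share their libraries and their locus).

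A coding gene on the opposite strand overlapped 370 members, called its partner here (362 distinct genes). The arrangement was head to head in 151, with the starts inside or beside each other, tail to tail in 102, the member inside the partner in 82 and the partner inside the member in 35. The remaining 60 overlapped no coding gene of the opposite strand, but 40 of these began within 1 kb of the start of one. Starts of member and coding gene thus lay within 1 kb of each other in 148 members. Members were shorter than expressed coding genes, with a median exonic length of 2586 bases against 5260 bases.

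With fatty acids, more members fell than rose; PRKAG2-AS1, C1QTNF1-AS1 and LINC01137 were among those that fell and GAS6-AS1 among those that rose. Against control, 11 members were higher and 34 lower (10.5% of 430), where 16.5% of all 18121 genes tested were called, 8.93% higher and 7.62% lower. Most members lie between 1 and 10 CPM. Among the 4733 genes of any class in that range 13.3% were called, 8.16% higher and 5.13% lower. Members were thus called lower about as often as all genes (7.91%) and higher less often (2.56%). The 474 long intergenic RNAs of at least 1 CPM split alike, with 15 higher and 35 lower (3.16% and 7.38%). A change of at least 2-fold was called in 13 members, against 2.47% of all genes. The 4 libraries of each group did not overlap in 23 members on the higher side and 42 on the lower, with 21.1% of all genes not overlapping (1844 and 1973 genes). The median log2 change was −0.04 for members and 0.01 for all genes. A gene is called when its edgeR adjusted p is under 0.05. Without fatty acids replicate 1 the members called numbered 28, with 6 higher and 22 lower. The share of all genes called in that refit was not worked out. Marker lists moved with fatty acids too, beside the hepatocyte markers above. Cholangiocyte markers summed to 317 to 370 CPM, against 167 to 173 CPM in control cells, and proliferation markers to 213 to 301 CPM, against 103 to 145 CPM. The cholangiocyte markers did not all rise. KRT19 had 153 to 180 CPM against 52.8 to 67.8 CPM and CD24 126 to 147 CPM against 49.0 to 54.4 CPM. SOX9 went the other way, with 26.3 to 31.8 CPM against 45.3 to 52.6 CPM. SPP1 was slightly higher (8.90 to 11.1 CPM against 6.98 to 8.71 CPM), KRT7 and CFTR stayed at 0.445 CPM or less and EPCAM at 0. The part of the marker changes in those of the members was not tested.

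PRKAG2-AS1 (chromosome 7:151877042-151879223, plus strand) starts 83 bases inside the start of PRKAG2, which encodes a regulatory subunit of AMP-activated protein kinase, the cell's energy sensor. It had 2.83, 3.70, 2.68 and 3.19 CPM in the fatty acid libraries, against 7.09, 7.63, 6.60 and 9.67 CPM in control libraries. All fatty acid values lay below all control values. The log2 change was −1.30 ± 0.18 (SE, adjusted p = 3.18e-05), and that of PRKAG2 was −0.77 (adjusted p = 1.19e-07), with 34.4 ± 3.55 CPM against 59.6 ± 2.94 CPM. The start of the antisense RNA is shown, since the pair moved together. Capitals mark the bases inside both genes, and the window runs from 250 bases before to 50 after the RefSeq start of the antisense RNA, short of the annotated start of PRKAG2 (GRCh38.p14, chr7:151876792-151877091, plus strand, 53.3% G and C).
PRKAG2-AS1: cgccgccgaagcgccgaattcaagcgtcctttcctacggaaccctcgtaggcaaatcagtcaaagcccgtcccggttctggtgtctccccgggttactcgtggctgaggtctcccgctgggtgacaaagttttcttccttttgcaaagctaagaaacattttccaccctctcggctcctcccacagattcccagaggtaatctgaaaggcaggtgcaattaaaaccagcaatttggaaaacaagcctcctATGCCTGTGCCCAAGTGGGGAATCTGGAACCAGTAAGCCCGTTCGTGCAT

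C1QTNF1-AS1 (chromosome 17:79019209-79027655, minus strand) overlaps the start of C1QTNF1, which encodes the secreted C1q/TNF-related protein CTRP1. It had 2.56, 3.08, 2.12 and 1.89 CPM with fatty acids, against 4.99, 6.24, 6.92 and 6.41 CPM in control cells. The groups did not overlap, and the log2 change was −1.33 ± 0.17 (adjusted p = 1.12e-05). C1QTNF1, at 523 ± 14.5 CPM against 1303 ± 105 CPM, changed by −1.30 (adjusted p = 1.68e-12), so the pair kept nearly the same ratio. None of the exonic bases of C1QTNF1-AS1 lie on a coding exon, and 28.99% lie in an intron of C1QTNF1. Its promoter window (chr17:79027606-79027905, minus strand, 58.3% G and C, 6 CpG) is shown beside that of PRKAG2-AS1 because both fell by more than 2-fold; capitals again mark bases inside both genes.
C1QTNF1-AS1: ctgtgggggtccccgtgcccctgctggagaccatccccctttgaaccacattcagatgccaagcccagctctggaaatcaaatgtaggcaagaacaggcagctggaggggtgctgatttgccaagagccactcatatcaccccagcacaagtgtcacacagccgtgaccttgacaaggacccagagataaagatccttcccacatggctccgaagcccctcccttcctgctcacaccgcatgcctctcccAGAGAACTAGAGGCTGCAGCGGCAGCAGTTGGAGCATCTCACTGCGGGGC

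LINC01137 (chromosome 1:37454879-37474411, minus strand) overlaps no coding gene but starts 141 bases from ZC3H12A, which encodes regnase-1, a nuclease that degrades inflammatory mRNAs. It had 10.9, 12.0, 11.4 and 10.9 CPM with fatty acids, against 22.5, 19.8, 23.8 and 22.5 CPM in control cells. Its log2 change was −0.95 ± 0.10 (adjusted p = 4.04e-07), with no overlap between the groups, and ZC3H12A fell by 0.52 on the log2 scale (adjusted p = 7.27e-04). RORB-AS1, head to head with the gene of the orphan nuclear receptor RORB, had 1.10 ± 0.27 CPM against 2.67 ± 0.35 CPM and changed by −1.25 ± 0.26 (adjusted p = 0.0018). RORB itself, at 48.0 ± 3.89 CPM against 56.4 ± 5.23 CPM, was not called.

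Falls were also seen in members of other arrangements. AL445259.1 lies wholly in introns of TRDN, the gene of the muscle protein triadin, and had 0.87 ± 0.28 CPM with fatty acids, against 2.09 ± 0.36 CPM in control cells. It changed by −1.24 ± 0.36 (adjusted p = 0.0216), and TRDN by −0.58 (adjusted p = 1.84e-04). This call was lost without control replicate 2 or 4 or without fatty acids replicate 2 or 3, with adjusted p up to 0.0672. SLC25A25-AS1, tail to tail with the gene of a mitochondrial carrier of ATP and phosphate, changed by −0.98 ± 0.23 (adjusted p = 0.00497), with 3.47 to 5.39 CPM against 5.08 to 9.95 CPM; SLC25A25 changed by −0.74. The highest fatty acid value lay within the control range. AL157823.2, which starts 85 bases from ARMC12, had 0.73 ± 0.22 CPM against 1.97 ± 0.64 CPM and changed by −1.41 ± 0.35 (adjusted p = 0.00845).

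GAS6-AS1 (chromosome 13:113815630-113845744, plus strand) rose. It lies tail to tail with GAS6, which encodes the ligand of the receptors AXL, MERTK and TYRO3. It had 12.7, 13.1, 13.9 and 15.3 CPM with fatty acids, against 7.39, 8.67, 8.44 and 9.04 CPM in control cells. The antisense RNA rose by 0.73 ± 0.12 (adjusted p = 2.57e-04) while GAS6 changed by −0.27 (adjusted p = 0.0234), to 113 ± 6.08 CPM against 138 ± 8.73 CPM. The groups overlapped in neither gene, and 93.3% of the exonic bases of GAS6-AS1 lie in introns of coding genes.

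Among low members, AC021074.3 had 2.18, 2.06, 3.07 and 3.40 CPM with fatty acids, against 0.781, 1.01, 0.557 and 1.00 CPM in control cells, a log2 change of 1.69 ± 0.35 (adjusted p = 0.00171). LINC02158 rose by 1.05 ± 0.28 (adjusted p = 0.0136), to 4.28 ± 0.86 CPM against 2.095 ± 0.57 CPM. AC013275.1, in an intron of the secretin receptor gene SCTR, rose by 1.70 ± 0.45 (adjusted p = 0.0117). Its call was lost without fatty acids replicate 1, at a change of 1.41 and an adjusted p of 0.0542. TNFRSF14-AS1, head to head with the gene of the herpesvirus entry mediator, rose by 1.13 ± 0.35 (adjusted p = 0.0302), to 1.89 ± 0.33 CPM against 0.88 ± 0.31 CPM. That call was lost without control replicate 1, 2 or 3 or fatty acids replicate 1, 2 or 4, with adjusted p up to 0.0846. AC027117.2, 428 bases from the start of MTUS1, rose by 0.99 ± 0.28 (adjusted p = 0.0160), and lost the call without control replicate 4 or fatty acids replicate 1 or 2, with adjusted p up to 0.0643.

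**Figure D2:**
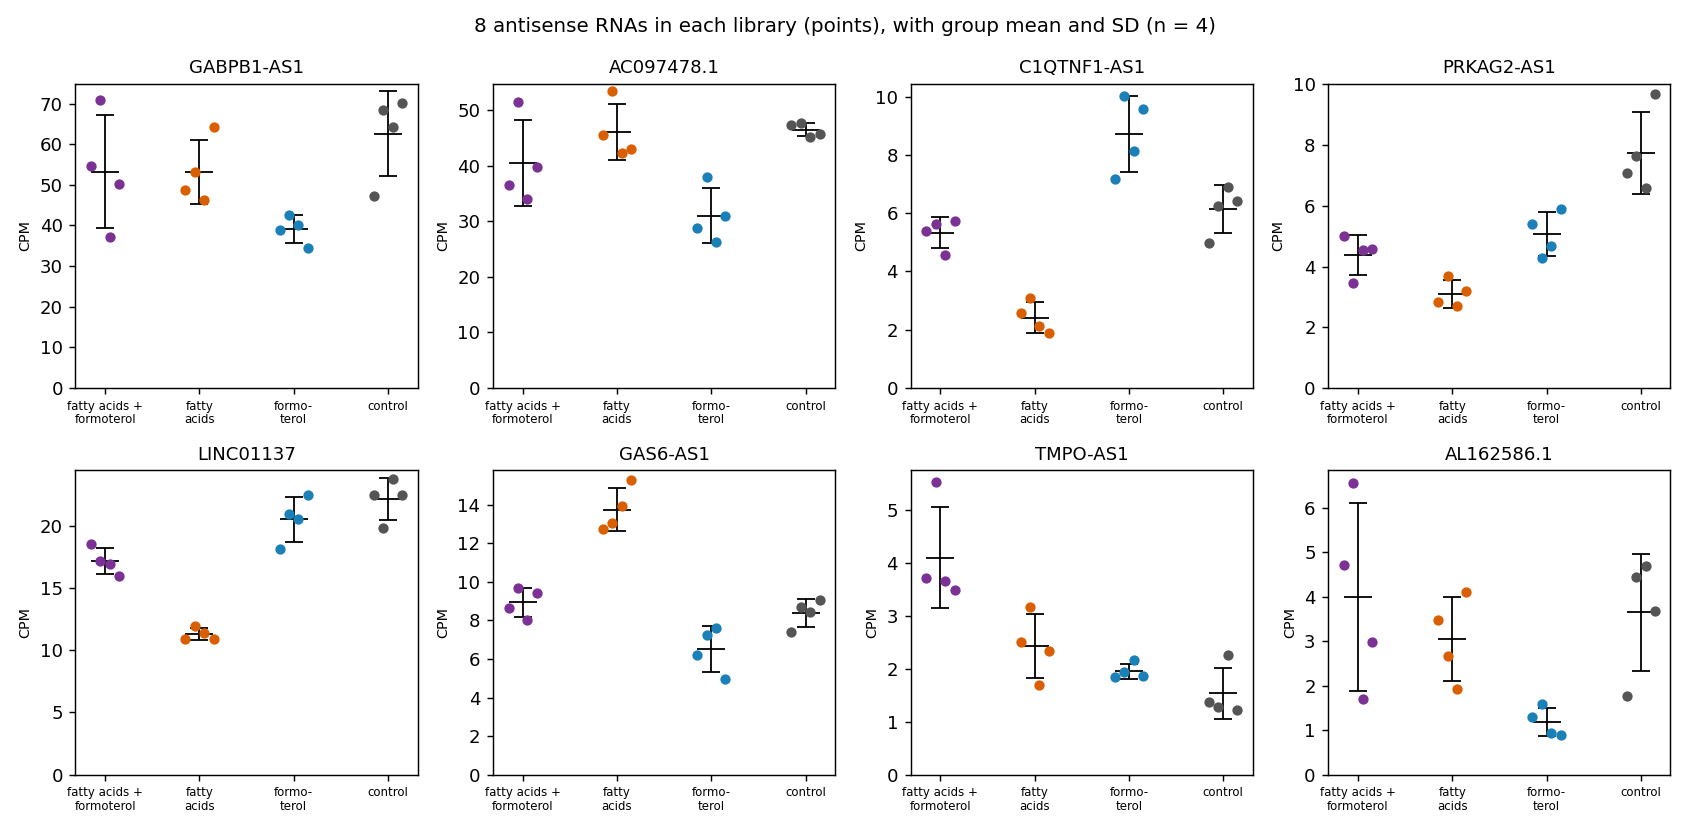
CPM (vertical axis, from 0) of 8 antisense RNAs in each library (points), by group (horizontal axis), with the group mean and SD (n = 4). PRKAG2-AS1, C1QTNF1-AS1 and LINC01137 are lowest with fatty acids, GAS6-AS1 is highest there, and GABPB1-AS1, AC097478.1 and AL162586.1 are lowest with formoterol.

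With formoterol, the antisense RNAs took a smaller share of all counts than in control cells, as did long intergenic RNAs. The members took 0.205% to 0.213% of all counts in formoterol libraries, against 0.247% to 0.264% in control libraries, with no overlap. An exact two-sided permutation test gave p = 0.0286, the smallest that 4 against 4 libraries allow; after Benjamini-Hochberg adjustment over 5 comparisons it was 0.0714, which does not pass 0.05. All long intergenic RNAs, taken without a threshold of level, had 0.389% to 0.421% of counts, against 0.517% to 0.582%, with the same p-values. In the fit, the median log2 change was −0.20 for the 430 members and −0.0022 for all genes. It was −0.17 for 474 long intergenic RNAs and 0.03 for 12280 coding genes, both of at least 1 CPM. Under total counts the members stood at −0.33 and all genes at −0.14. A change of scaling moves every gene by nearly the same amount, so the distance of −0.20 between them could hardly differ and is no further check. The members' median deviation from the control mean was −0.19 to −0.16 in each of the 4 formoterol libraries and −0.03 to 0.05 in control libraries. The stellate and fibroblast markers summed to 446 to 483 CPM with formoterol, against 655 to 840 CPM in control cells. Most of that sum was DCN, at 313 to 334 CPM against 490 to 638 CPM. LUM was also lower (73.7 to 74.8 CPM against 90.5 to 116 CPM). ACTA2 and COL1A1 overlapped control, and so, narrowly, did PDGFRB. COL3A1 stayed at 0.322 CPM or less and COL1A2 at 0. The hepatocyte markers summed higher with formoterol, as given above, although CYP3A4 and APOB overlapped control. The part of these marker changes in the shift was not tested.

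**Figure D3:**
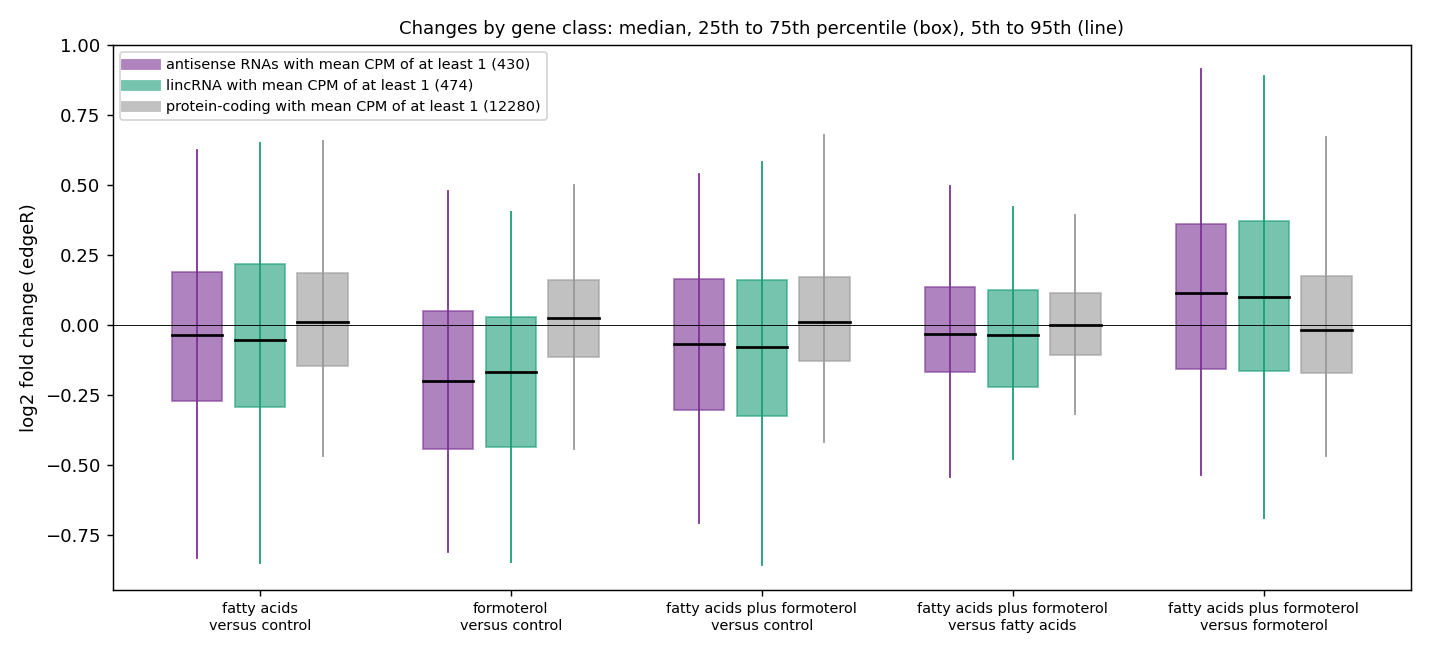
Log2 fold changes (vertical axis) of 430 antisense RNAs (purple), 474 long intergenic RNAs (green) and 12280 protein-coding genes (grey), all with a mean of at least 1 CPM, in 5 comparisons (horizontal axis). The black line is the median, the box spans the 25th to the 75th percentile and the thin line the 5th to the 95th; in formoterol versus control the medians are −0.20, −0.17 and 0.03.

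Against control, 6 members were higher and 31 lower with formoterol (8.60%), where 10.3% of all genes were called, 5.76% higher and 4.57% lower. Among the 4733 genes of 1 to 10 CPM 6.06% were called, 2.56% higher and 3.51% lower. Under total counts the split of the members was 5 higher and 63 lower. All genes shifted the same way, with 2.68% called higher and 10.6% lower. Calls of at least 2-fold numbered 13 (1.22% of all genes). In CPM, 7 members lay wholly above control and 93 wholly below it, with 20.4% of all genes not overlapping, likewise mostly below (759 above and 2940 below). Without control replicate 3 the members called numbered 19 (5 higher, 14 lower), and without formoterol replicate 4, the deepest library, 23 (5 higher, 18 lower). The share of all genes was not worked out for these 2 refits. Without combination replicate 2, 44 members (9 higher, 35 lower) and 14% of all genes were called.

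Among abundant members, GABPB1-AS1 (chromosome 15:50354959-50372202, plus strand) is head to head with the gene of a subunit of the GA-binding transcription factor. It had 38.8, 42.7, 40.2 and 34.4 CPM with formoterol, against 47.4, 68.5, 64.3 and 70.1 CPM in control cells. The groups did not overlap and the log2 change was −0.55 ± 0.13 (adjusted p = 0.00966), while GABPB1 was not called, at 9.29 ± 0.99 CPM against 10.25 ± 1.58 CPM. AC097478.1 had 28.8, 37.9, 26.3 and 30.9 CPM, against 47.2, 47.6, 45.2 and 45.6 CPM. Its log2 change was −0.45 ± 0.10 (adjusted p = 0.0076), with no overlap between the groups. AL157829.1, in introns of the neuronal gene ASTN2, had 9.53 ± 1.03 CPM against 17.0 ± 1.87 CPM and changed by −0.71 ± 0.14 (adjusted p = 0.00347).

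Members of lower level fell by over 2-fold. AC007182.1 (chromosome 14:75574888-75579588, minus strand), head to head with the transporter gene FLVCR2, had 1.44, 1.69, 1.68 and 1.39 CPM with formoterol, against 5.47, 3.53, 6.68 and 5.07 CPM in control cells. All formoterol values were the lower, the log2 change was −1.61 ± 0.20 (adjusted p = 3.88e-05), and FLVCR2 changed by −0.58 (adjusted p = 3.88e-05). AL162586.1, inside ENG, the gene of the TGF-beta co-receptor endoglin, had 1.30, 1.59, 0.946 and 0.898 CPM, against 1.77, 4.45, 4.69 and 3.69 CPM. It changed by −1.49 ± 0.35 (adjusted p = 0.00856) and ENG by −1.66 (adjusted p = 0.0036), with 86.1% of the exonic bases of AL162586.1 in introns of ENG. Endoglin also marks endothelial cells; the 4 endothelial markers summed to 35.1 to 48.1 CPM with formoterol and 119 to 139 CPM in control cells, nearly all of it from KDR, with CDH5 and VWF at 0. AL445259.1 fell here too, to 0.61 ± 0.25 CPM against 2.09 ± 0.36 CPM (−1.65 ± 0.37, adjusted p = 0.00639).

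LINC00894 and LINC00893 on the X chromosome are partial copies of each other: 51.5% of the first and 59.4% of the other transcript match at 95% identity or more, so their counts are uncertain between them. LINC00894 had 0.488 to 1.25 CPM with formoterol, against 1.62 to 4.13 CPM in control cells (−1.68 ± 0.41, adjusted p = 0.0114). LINC00893 had 0.472 to 1.04 CPM, against 1.56 to 3.25 CPM (−1.59 ± 0.40, adjusted p = 0.0137), a call lost without control replicate 3 or formoterol replicate 4, with adjusted p up to 0.0597.

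The 6 members that rose with formoterol were AC021074.3, AC027117.2, AL139385.1, LINC02158, C1QTNF1-AS1 and LBX2-AS1. AC021074.3 had 2.26, 2.17, 2.87 and 2.76 CPM, against 0.781, 1.01, 0.557 and 1.00 CPM in control cells (1.71 ± 0.35, adjusted p = 0.00332). AL139385.1, head to head with NAXD, the gene of an enzyme that repairs hydrated NADH, had 4.62, 4.47, 5.67 and 4.04 CPM, against 2.88, 2.23, 2.96 and 2.46 CPM (0.96 ± 0.20, adjusted p = 0.00335). NAXD was not called, at 55.6 ± 3.04 CPM against 55.1 ± 3.32 CPM. C1QTNF1-AS1 had 7.18, 10.0, 8.14 and 9.59 CPM, against 4.99, 6.24, 6.92 and 6.41 CPM (0.65 ± 0.16, adjusted p = 0.0136), with C1QTNF1 not called at 1235 ± 52.4 CPM against 1303 ± 105 CPM. Its call was lost without formoterol replicate 4 (0.57 to 0.74 over single left-out libraries, adjusted p up to 0.0566). LBX2-AS1, head to head with the homeobox gene LBX2, had 16.9 to 18.8 CPM, against 13.9 to 15.0 CPM (0.47 ± 0.11, adjusted p = 0.0106). AC027117.2 (1.03 ± 0.27, adjusted p = 0.0197) lost its call without control replicate 3 or 4 or formoterol replicate 3, with adjusted p up to 0.0679. LINC02158 (0.93 ± 0.28, adjusted p = 0.0387) lost it without control replicate 1, 2 or 3, formoterol replicate 1, 2 or 4 or fatty acids replicate 1, with adjusted p up to 0.113, and with total counts, at 0.0516.

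Formoterol added to fatty acids changed 5 members against fatty acids alone (1.16%), 2 higher and 3 lower, where 2.80% of all genes were called, 1.68% higher and 1.12% lower. Of the 4733 genes of 1 to 10 CPM 1.42% were called, 1.10% higher and 0.317% lower. Libraries did not overlap in 10 members on the higher side and 9 on the lower (7.90% of all genes), and 1 call was of at least 2-fold (0.364% of all genes). C1QTNF1-AS1 had 5.38, 5.62, 4.56 and 5.74 CPM in the combination, against 2.56, 3.08, 2.12 and 1.89 CPM with fatty acids. The groups did not overlap, and the antisense RNA rose by 1.12 ± 0.17 (adjusted p = 4.45e-04) and C1QTNF1 by 0.69 (adjusted p = 1.54e-07). LINC01137 had 18.6, 17.2, 17.0 and 16.0 CPM, against 10.9, 12.0, 11.4 and 10.9 CPM (0.58 ± 0.10, adjusted p = 8.90e-04), and its neighbour ZC3H12A rose by 0.50 (adjusted p = 0.00516). GAS6-AS1 fell to 8.66, 9.68, 8.04 and 9.40 CPM in the combination, against 12.7, 13.1, 13.9 and 15.3 CPM (−0.64 ± 0.12, adjusted p = 0.00431), with GAS6 not called. These 3 calls held without combination replicate 2 and without any other single library.

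A further call was fragile. AC022916.1, 73 bases from the start of SLFN5, had 3.40 ± 0.65 CPM against 5.45 ± 0.99 CPM (−0.71 ± 0.18, adjusted p = 0.0331). It lost the call without fatty acids replicate 1 or 3 or combination replicate 3 or 4, with adjusted p up to 0.147, and with total counts (0.0550) or only the groups compared (0.0935). Without combination replicate 4 the members called numbered 3, with the share of all genes not worked out. Without combination replicate 2 they numbered 7, where 3.19% of all genes were called.

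In the combination against control, 8 members were higher and 26 lower (7.91%), where 14.3% of all genes were called, 7.58% higher and 6.68% lower. Of the 4733 genes of 1 to 10 CPM 12.6% were called, 8.83% higher and 3.74% lower. Members called at least 2-fold numbered 8 (2.54% of all genes). Without combination replicate 2 the split of the members was the same, 8 and 26, with 15.2% of all genes called. TMPO-AS1 (chromosome 12:98512973-98516422, minus strand), head to head with TMPO, whose proteins tether chromatin to the nuclear lamina, had 3.72, 5.53, 3.67 and 3.49 CPM in the combination, against 1.38, 1.28, 2.26 and 1.23 CPM in control cells. The groups did not overlap. TMPO-AS1 rose by 1.41 ± 0.23 (adjusted p = 1.80e-04) and TMPO by 0.84 (adjusted p = 7.83e-07), to 80.4 ± 17.3 CPM against 44.5 ± 5.00 CPM. The 4 proliferation markers summed to 339 to 650 CPM in the combination and 103 to 145 CPM in control cells, highest in combination replicate 2, as was TMPO-AS1; their part in this result was not tested. Without that library the TMPO-AS1 change was 1.29. The start of TMPO-AS1 is shown as a contrast to that of PRKAG2-AS1: it is richer in G and C (73.3%) and has 39 CpG against 16 (chr12:98516177-98516476, minus strand, GRCh38.p14, capitals as before). Its RefSeq start lies inside the GENCODE gene, so more of this window falls in both genes, and the start of TMPO lies outside it.
TMPO-AS1: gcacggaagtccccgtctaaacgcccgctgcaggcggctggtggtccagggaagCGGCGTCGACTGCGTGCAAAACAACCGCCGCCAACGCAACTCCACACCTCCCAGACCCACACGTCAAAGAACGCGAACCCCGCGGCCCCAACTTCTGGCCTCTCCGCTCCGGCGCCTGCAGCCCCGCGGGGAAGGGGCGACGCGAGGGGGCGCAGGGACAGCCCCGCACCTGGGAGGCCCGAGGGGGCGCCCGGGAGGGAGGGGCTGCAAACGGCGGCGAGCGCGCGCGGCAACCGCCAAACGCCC

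The other rises named were AC027117.2 and AL928654.1. AC027117.2 had 3.79 ± 1.20 CPM in the combination, against 1.63 ± 0.51 CPM in control cells (1.24 ± 0.27, adjusted p = 0.00342). AL928654.1, in an intron of TEX22, had 1.21 to 1.82 CPM against 0.515 to 1.17 CPM (1.17 ± 0.37, adjusted p = 0.0347), a call lost without control replicate 1, 2 or 4 or combination replicate 3 or 4, with adjusted p up to 0.102, and without the low-count filter, at 0.0592.

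AC137723.1, SLC25A25-AS1 and AC243772.2 fell in the combination. AC137723.1 starts 173 bases from DCXR, the gene of a sugar reductase, and had 0.60 ± 0.19 CPM, against 1.66 ± 0.77 CPM in control cells (−1.44 ± 0.36, adjusted p = 0.00905); DCXR changed by −0.90 (adjusted p = 1.23e-06). SLC25A25-AS1 had 4.85, 4.38, 2.02 and 3.82 CPM, against 5.08, 9.95, 9.00 and 8.62 CPM (−1.13 ± 0.23, adjusted p = 0.00174), while SLC25A25 was not called. AC243772.2 had 9.01, 10.6, 10.4 and 10.9 CPM, against 24.7, 21.4, 21.7 and 17.2 CPM (−1.05 ± 0.14, adjusted p = 1.37e-05). It is tail to tail with FCGR1A, the gene of a high-affinity IgG receptor of myeloid cells, which changed by −1.07 (adjusted p = 4.37e-04). The whole AC243772.2 transcript has a copy at 95% identity or more in AC244453.2, so its counts are uncertain.

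Fatty acids added to formoterol gave the most rises, among members as among all genes. In the combination, 32 members were higher (7.44%) and 14 lower than with formoterol alone, 10.7% in all. Of all genes 18.4% were called, 9.48% higher and 8.97% lower. Of 474 long intergenic RNAs of at least 1 CPM, 41 were higher and 26 lower. Of the 4733 genes of 1 to 10 CPM 15.4% were called, 11.9% higher and 3.51% lower. Members called at least 2-fold numbered 18 (3.02% of all genes). Under total counts the split was 62 and 6, with 16.4% of all genes called higher and 3.84% lower. Without combination replicate 2 it was 22 higher and 8 lower, with 14.6% of all genes called. The members that had been lowest with formoterol were among the rises, and the comparisons share the formoterol libraries. AC007182.1 had 3.61, 5.44, 3.69 and 2.75 CPM in the combination, against 1.44, 1.69, 1.68 and 1.39 CPM with formoterol (1.18 ± 0.20, adjusted p = 3.55e-04). LINC00893 rose by 1.97 ± 0.40 (adjusted p = 0.00149), LINC00894 by 1.85 ± 0.41 (adjusted p = 0.00308) and AL162586.1 by 1.59 ± 0.35 (adjusted p = 0.00286, with ENG at 1.56). ASMTL-AS1, tail to tail with ASMTL, had 1.74, 3.90, 0.576 and 1.57 CPM, against 0.326, 0.404, 0.458 and 0.198 CPM (2.34 ± 0.53, adjusted p = 0.00376; 1.83 without combination replicate 2). All 4 combination values were above all formoterol values, although they spread widely.

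Lower in the combination than with formoterol were AC137723.1 (−1.26 ± 0.36, adjusted p = 0.0177), AL445524.1 (−0.97 ± 0.28, adjusted p = 0.0167) and AC096677.1 (−0.94 ± 0.29, adjusted p = 0.0264). Their coding neighbours moved the same way: DCXR fell by 1.05 on the log2 scale, TSNAX, 97 bases from AL445524.1, by 0.25 and CSRP1, head to head with AC096677.1, by 0.62. Each antisense call was lost without combination replicate 2, with changes of −1.07, −0.79 and −0.80 and adjusted p of 0.0604, 0.0527 and 0.0755. Without combination replicate 1 all 3 were lost too, as was AL445524.1 without formoterol replicate 4 or with only the groups compared (0.0583), and AC096677.1 without formoterol replicate 1 or 3.

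The effect of formoterol differed with and without fatty acids in 16 members (3.72%), where 5.50% of all genes were called. The interaction was positive in 13 and negative in 3 (2.12% and 3.38% of all genes), and at least 2-fold in 11 (1.42% of all genes). Of the 4733 genes of 1 to 10 CPM 2.89% were called, 1.71% positive and 1.18% negative. Under total counts the split of the members was 23 and 3, with 5.68% and 1.94% of all genes. It was 6 and 2 without control replicate 3, 8 and 2 without control replicate 4 and 7 and 2 without formoterol replicate 4. Without combination replicate 3 it was 21 and 5, and without combination replicate 2 it was 10 and 4. In that last refit 5.54% of all genes were called, and for the others the share was not worked out. AC021074.3 rose with formoterol against control but had 1.15, 0.544, 2.11 and 1.87 CPM in the combination, against 2.18, 2.06, 3.07 and 3.40 CPM with fatty acids (interaction −2.61 ± 0.48, adjusted p = 0.00403). LINC02158 had the same pattern, with 2.25 ± 0.81 CPM in the combination, against 4.28 ± 0.86 CPM with fatty acids (interaction −1.85 ± 0.40, adjusted p = 0.0102). AC007182.1 fell with formoterol against control, whereas it had 3.87 ± 1.13 CPM in the combination, against 4.27 ± 0.24 CPM with fatty acids (interaction 1.43 ± 0.28, adjusted p = 0.00582). LINC01137 rose with formoterol in the presence of fatty acids, with 20.5 ± 1.81 CPM in formoterol cells against 22.2 ± 1.67 CPM in control cells (interaction 0.56 ± 0.13, adjusted p = 0.0187). Its neighbour ZC3H12A had an interaction of 0.76 (adjusted p = 0.00378).

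Across the 331 pairs with both genes tested, changes of antisense RNA and partner went together loosely, with r between 0.18 and 0.31 over the 5 comparisons. These correlations are over pairs within the same libraries and loci and carry no p. With fatty acids against control, 34 members and 56 partners of these pairs were called; 3 pairs rose together, 9 fell together and 2 moved in opposite ways, which is 41.2% of the called members and 14 of the 56 called partners. With formoterol, 28 members and 40 partners were called, 4 pairs fell together and in 1 pair the member fell and the partner rose, 17.9% and 12.5%. All genes were called in 16.5% and 10.3% in these comparisons. By arrangement, r with fatty acids was 0.48 in 142 head to head pairs, 0.28 in 96 tail to tail pairs and 0.21 in 69 members inside their partner. With formoterol it was 0.14, 0.19 and 0.43. The 40 members without overlap that start within 1 kb of a coding gene had r = 0.60 with that gene for fatty acids and 0.40 for formoterol.

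**Figure D4:**
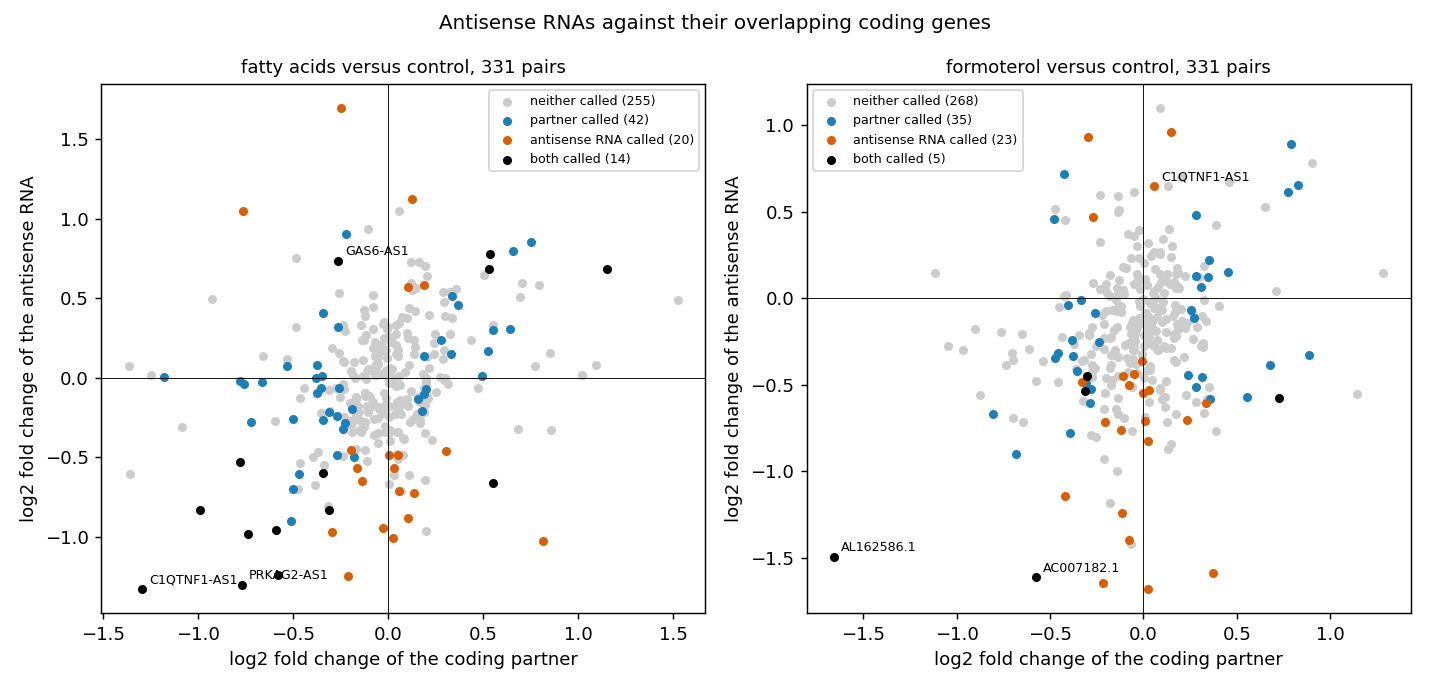
Log2 fold change of each antisense RNA (vertical axis) against that of its overlapping coding gene (horizontal axis) for fatty acids (left) and formoterol (right), each against control, over 331 pairs. Colours give which gene of the pair was called, and 14 pairs with fatty acids and 5 with formoterol have both called. With fatty acids C1QTNF1-AS1 and PRKAG2-AS1 lie in the lower left, having fallen with their partners. With formoterol AL162586.1 and AC007182.1 lie there, whereas C1QTNF1-AS1 rose and lies in the upper part.

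Whether an antisense RNA changed differently from its own partner was tested on the log2 ratio of their counts in each library, which does not depend on library scaling. Of 331 member pairs, 5 changed their ratio with fatty acids against control (0.588% of 1361 noncoding to coding pairs were called), 10 with formoterol against control (1.10%), 2 in the combination against control (0.588%) and 1 in the combination against fatty acids (0.147%). All 10 with formoterol were lower, as were all 15 called among the 1361 pairs, and the median ratio changed by −0.15 in member pairs and −0.19 in all pairs. When limma was run without its trend and robust options, no member pair passed in any of the 4 comparisons, while 47, 57, 48 and 26 member pairs had an unadjusted p under 0.05 in the main test, in the same order.

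**Figure D5:**
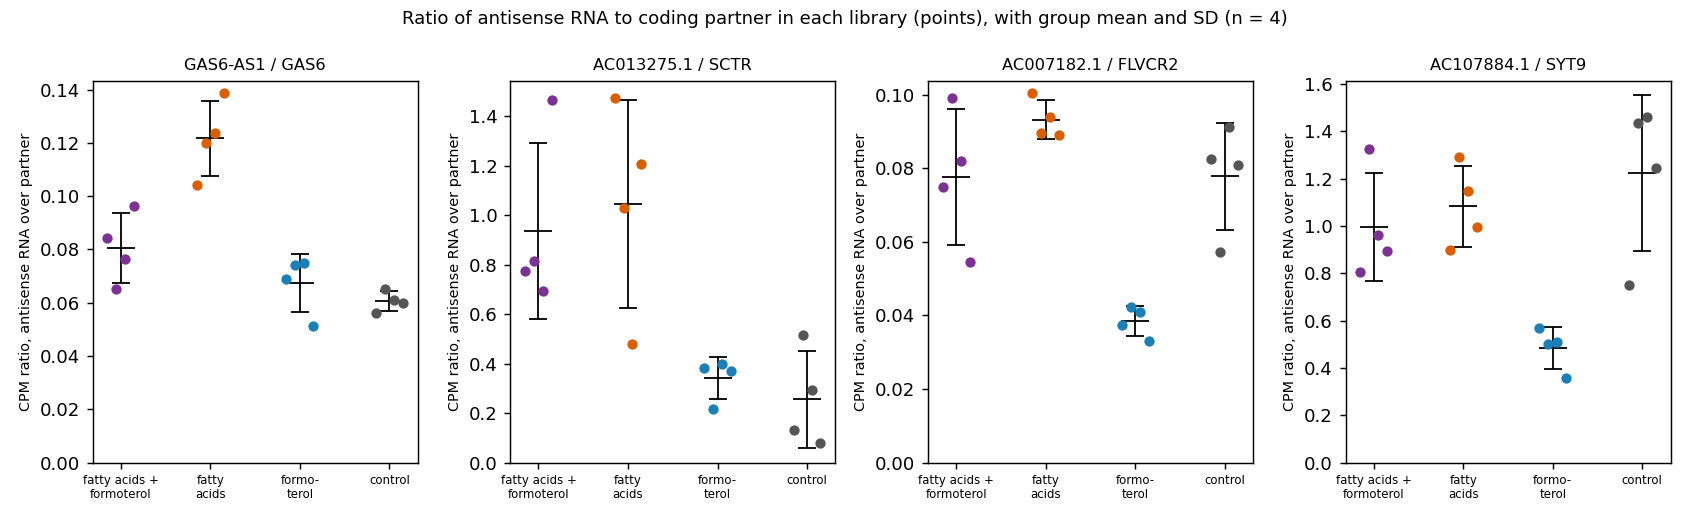
Ratio of the CPM of an antisense RNA to that of its coding partner (vertical axis, from 0) in each library (points), by group (horizontal axis), with mean and SD (n = 4). GAS6-AS1 over GAS6 is 0.104 to 0.139 with fatty acids and 0.0562 to 0.0651 in control cells, and AC107884.1 over SYT9 is 0.358 to 0.568 with formoterol and 0.751 to 1.46 in control cells.

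The ratio of GAS6-AS1 to GAS6 rose by 1.00 ± 0.17 on the log2 scale with fatty acids (limma adjusted p = 0.00391), and no fatty acid library overlapped a control library. AC013275.1 rose against SCTR by 2.12 (adjusted p = 0.0128) with fatty acids and by 2.01 (adjusted p = 0.0262) in the combination, but neither call held without control replicate 1 or 4 (1.73 to 1.95 and 1.62 to 1.84), without fatty acids replicate 1 for the first, or without combination replicate 4 for the other. Lower ratios with fatty acids were seen for AL137002.2 to F10, the gene of coagulation factor X (−1.23, adjusted p = 0.0197), and MBNL1-AS1 to MBNL1, the gene of a splicing factor (−1.09, adjusted p = 0.0316). F10 rose with fatty acids (0.55, adjusted p = 0.0343) while AL137002.2 fell (−0.66, adjusted p = 0.0299), with only 98 bases of overlap; the call of AL137002.2 itself was lost without the low-count filter (adjusted p = 0.128), with only the groups compared (0.0514) and without 6 of the 16 libraries, control replicate 1, 2 or 3 or fatty acids replicate 1, 3 or 4 (up to 0.0930). Both ratio calls were lost without control replicate 1, 2 or 3 or fatty acids replicate 3; that of AL137002.2 also without fatty acids replicate 1, and that of MBNL1-AS1 also without control replicate 4 or fatty acids replicate 4, with adjusted p up to 0.155. The remaining pair with a lower ratio was CA3-AS1 to the carbonic anhydrase gene CA3, with a change of −1.67 with fatty acids (adjusted p = 0.0316) and −1.73 in the combination (adjusted p = 0.0290). The first was lost without control replicate 1, 2 or 3 or fatty acids replicate 1, 2 or 3, and the other without any 1 of the 4 control libraries or combination replicate 1, 3 or 4, with adjusted p up to 0.183. Against the overlapping coding gene of most counts, the ratio changes of CA3-AS1 were −0.46 and −0.21, with adjusted p of 0.732 and 0.911.

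With formoterol, the ratio of AC107884.1 to SYT9, the gene of a synaptotagmin, had the lowest adjusted p (−1.30, adjusted p = 0.00342). The antisense RNA changed by −0.58 ± 0.17 (adjusted p = 0.0341) and SYT9 by 0.73 (adjusted p = 0.0164), with 3.86 ± 0.95 CPM and 7.98 ± 1.07 CPM in formoterol cells, against 6.28 ± 1.21 CPM and 5.29 ± 0.92 CPM in control cells. The ratio call held without each library in turn. The fall of AC107884.1 itself was lost without control replicate 2, 3 or 4 or formoterol replicate 2, 3 or 4, with adjusted p up to 0.124, and with only the groups compared (0.0546). The ratios of AC007182.1 to FLVCR2 (−0.98, adjusted p = 0.0335) and AL157829.1 to ASTN2 (−0.93, adjusted p = 0.0334) were also lower. Both were lost without control replicate 3 or 4 or formoterol replicate 1, 3 or 4; the first also without control replicate 1 and the other without control replicate 2, with adjusted p up to 0.144. The only pair called in the combination against fatty acids was ZNF385D-AS1 to ZNF385D (−1.27, adjusted p = 0.0469), a call that 9 of 16 left-out libraries removed, among them combination replicate 2 (adjusted p up to 0.277), as did a pseudocount of 0.5 (0.124).

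Of 17 antisense RNAs listed for a known role, 8 were members. HNF4A-AS1, inside the gene of the hepatocyte factor HNF4A, had 2.01, 0.454, 1.87 and 3.27 CPM in the combination, 4.00, 2.22, 3.34 and 2.89 CPM with fatty acids, 3.18, 3.13, 3.94 and 1.90 CPM with formoterol, and 1.80, 2.88, 1.38 and 2.52 CPM in control cells. The groups overlapped and no comparison was called, while HNF4A rose with formoterol by 0.77 (adjusted p = 7.81e-04), to 152 ± 10.3 CPM against 97.8 ± 3.10 CPM. The lowest HNF4A-AS1 value was that of combination replicate 2, the library with the fewest hepatocyte marker counts of its group.

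KCNQ1OT1, the imprinted RNA inside KCNQ1, had 2.84, 4.14, 1.87 and 2.91 CPM in the combination, against 1.44, 1.51, 1.53 and 1.40 CPM with formoterol (0.85 ± 0.23, adjusted p = 0.0115); without combination replicate 2 the adjusted p was 0.0538. KCNQ1 was listed at 0 in every library. ZEB1-AS1, head to head with the gene of the transcription factor ZEB1, had 7.36, 7.91, 10.6 and 8.63 CPM with fatty acids, against 6.88, 6.77, 4.51 and 5.15 CPM in control cells (0.58 ± 0.19, adjusted p = 0.0371). That call was lost without control replicate 3 or 4 or fatty acids replicate 3 or 4, with adjusted p up to 0.138, and with total counts, at 0.0671. ZFAS1, GATA6-AS1, NR2F1-AS1, MCM3AP-AS1 and FOXN3-AS1 were called in none of the 6 tests, with control means of 5.32 ± 0.48, 1.13 ± 0.40, 8.36 ± 1.49, 4.205 ± 0.81 and 1.38 ± 0.41 CPM. Of the exonic bases of ZFAS1, the host of small nucleolar RNAs, 46.9% are shared with exons of other genes. Whether its count includes reads on those bases was not tested.

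RefSeq promoters (GRCh38.p14, 250 bases before to 50 after the start) matched 144 of the 430 members. Their median G and C content was 64.3% with 24.5 CpG, against 58.7% and 14.0 CpG over 35116 promoters. The cAMP response element TGACGTCA, the site of the factor CREB that cAMP signalling activates, lay in 3 of the 144 (2.08%) and in 1.85% of all promoters, both strands searched. The 3 were POT1-AS1, LENG8-AS1 and DNAJC27-AS1, named here after their values were seen; with formoterol against control they changed by −0.03, −0.67 and 1.10, with adjusted p of 0.933, 0.0713 and 0.0773, so none was called. The shorter core TGACG, which the full element contains, lay in 31.3% of the 144 and in 24.6% of all promoters, among them that of TMPO-AS1 but not those of PRKAG2-AS1 and C1QTNF1-AS1. The exact direct repeat of the PPAR response element, the DR1 motif that nuclear receptors for fatty acids bind, lay in none of the 144 and in 0.023% of all promoters.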

How the data were processed

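Poly(A)-selected RNA of 16 HepaRG libraries was sequenced. The authors deposited 1 table of raw counts per gene, with gene lengths, biotypes and coordinates. Per the submitters' processing notes, tools named were DESeq2 and HISAT2 2.0.5 and the build was mouse, mm39; all 58735 gene records match human GENCODE 29 on GRCh38 by name, strand, start and end, so human coordinates were used. Sources used here give neither the counting program nor strandedness.

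The deposited counts were tested with edgeR 4.0.16 in R 4.3.3: filterByExpr (18121 genes, at least 99.92% of counts), TMM scaling, 1 quasi-likelihood model over the 4 groups and Benjamini-Hochberg adjustment over all genes, with a threshold of 0.05. All 430 members passed the filter. Ratios of each noncoding RNA to its overlapping coding gene (log2 of counts with a pseudocount of 2, pairs with at least 40 counts) were tested with limma 3.58.1 (trend and robust) over 1361 pairs, of which 331 hold a member. Where several coding genes overlapped, the partner with the longest overlap was used. CPM values are counts scaled to a library total of 1e6. The models were checked on simulated data. Alternatives included DESeq2 1.42.0, other scalings, filters and pseudocounts, a replicate block and each library left out.

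Replicate numbers did not pair the libraries. The members and lists were chosen with earlier results of these data known. Named were the 10 members of highest level, up to 5 (main comparisons) or 3 (others) of the largest called rises and falls, up to 3 ratio calls each way, 8 members of a list of 17 known antisense RNAs and the genes next to the level threshold, 53 members in all beside the latter. Overlaps were found with bedtools 2.31.1 and copies with blastn 2.17.0. The number of counts behind a value limits its precision; p-values do not cover differences between cell batches. Some items are not reported here.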

Additional observations from a re-analysis of the deposited data

Results flagged for a closer look

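In 9 of 212 groups of 4 libraries, over the 53 named members, a library lay far from the other 3 by the ratio of its gap to the group's range, where chance gives about 1 in 20. Combination replicate 2 had 5.53 CPM of TMPO-AS1, against 3.49 to 3.72 CPM in the other combination libraries, and control replicate 3 had 2.26 CPM, against 1.23 to 1.38 CPM. Control replicate 3 was also high in AL928654.1, with 1.17 CPM against 0.515 to 0.624 CPM. LINC02158 had 2.95 CPM in control replicate 4, against 1.72 to 1.88 CPM in the others. Among fatty acid libraries, replicate 4 was high in SLC25A25-AS1 (5.39 CPM, others 3.47 to 3.79 CPM) and ASMTL-AS1 (2.71 CPM, others 0.566 to 0.883 CPM). Replicate 3 was low in TNFRSF14-AS1, with 1.40 CPM where the others had 2.04 to 2.06 CPM. Among formoterol libraries, replicate 3 was low in CA3-AS1 (0.671 CPM, others 0.985 to 1.04 CPM) and replicate 4 in AL157829.1 (7.99 CPM, others 9.82 to 10.2 CPM).

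The effect of formoterol differed with and without fatty acids in 11 named members, by edgeR's interaction term. The log2 interaction was −2.61 for AC021074.3, −1.85 for LINC02158 and −0.62 for LBX2-AS1. It was positive at 2.15 for AC027796.4, 2.14 for LINC00893, 1.93 for AL445259.1, 1.92 for AL157823.2, 1.83 for AL162586.1, 1.43 for AC007182.1, 0.97 for PRKAG2-AS1 and 0.56 for LINC01137. Those of AC021074.3, LINC02158, AC007182.1 and LINC01137 passed without each library in turn. The other 7 were lost without between 6 and 9 of the 16 libraries, with adjusted p up to 0.0772; without combination replicate 2, AL445259.1 and AL157823.2 were lost.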

How the results depend on the processing

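Over the 97 called results of named members, no alternative reversed a direction; of 2198 recomputed values 1894 stayed past the threshold and 304 did not. Of 86 gene calls, 46 were kept without each library in turn and 69 under every other setting; of 11 ratio calls, 2 were kept without each library. The counts below are of members called, and causes of their moves were not tested except where fewer members were counted. The share of all genes called was worked out only in the main fit, under the other scalings and without combination replicate 2. Asking for at least 2-fold left 13 members with fatty acids against control, 13 with formoterol against control, 8 in the combination against control, 1 against fatty acids and 18 against formoterol. Keeping the 126 members with no exonic base on a coding exon, a choice made after seeing the data, left 18, 12, 10, 3 and 11 in the same order and 4 interactions. Keeping the 255 members of at least 2 CPM left 27 in the combination against formoterol and 10 interactions. For the combination against fatty acids the count was 9 with DESeq2, 9 without a low-count filter, 3 with only the groups compared and 3 with total counts; total counts gave 68 for formoterol against control and 26 interactions, and DESeq2 27 interactions. The medians under other scalings were also added after seeing the data.

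Ratio calls fell to 0 in all 4 comparisons with limma without trend and robust. With a pseudocount of 0.5 they were 5 for formoterol against control and 0 for the combination against fatty acids, and with the partner of most counts 1 for the combination against control. Leaving out single libraries gave 28 to 50 members with fatty acids, 19 to 44 with formoterol and 24 to 34 in the combination against control. It gave 3 to 7 in the combination against fatty acids, 30 to 50 against formoterol and 8 to 26 interactions. Calls over all genes moved as well: without combination replicate 2 they were 19.4% with fatty acids and 14% with formoterol, each against control. Ratio calls ranged from 1 to 7 with fatty acids, 1 to 13 with formoterol, 0 to 5 in the combination against control and 0 to 1 against fatty acids. Same-numbered libraries correlated by −0.113 to 0.082, so the numbers do not pair them; with the replicate block 45, 37, 30, 5 and 49 members and 17 interactions were called, and 5, 12, 2 and 0 ratios. The AL928654.1 call in the combination against control had an adjusted p of 0.0509 with the block. Low members of 1 to 2 CPM rest on few counts per library.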
